A study of Danio rerio with 6 samples.

Results

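The cytochrome P450 genes of 96 hpf zebrafish (hours post fertilization) were compared between animals kept in PCB-11 and animals kept in its DMSO vehicle. Members were all gene symbols of the count tables that begin with cyp and a digit, with cyp51 left out, and this gave 69 of 14791 symbols. By number they fell into 5 cyp1, 35 cyp2, 4 cyp3 and 4 cyp4 genes and 21 genes from cyp7 to cyp46. A test was possible for 60 of them. The 9 members with too few reads for edgeR's expression filter were cyp1c1, cyp1c2, cyp2aa3, cyp2aa3v1, cyp2k8, cyp2k22, cyp4f3, cyp11a1 and cyp19a1a.

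Cytochrome P450 enzymes are heme proteins that insert an oxygen atom into their substrate, with electrons passed on by P450 oxidoreductase in the endoplasmic reticulum or by ferredoxin in mitochondria. The cyp1 to cyp4 families hold most of the enzymes that oxidise foreign compounds and fatty acids, and liver and intestine are their main sites in vertebrates. The cyp1 family includes known targets of the aryl hydrocarbon receptor, a ligand-activated transcription factor. The cyp3 family includes known targets of the pregnane X receptor. The families with higher numbers mostly handle endogenous substrates: steroid hormones, bile acids, retinoic acid and vitamin D.

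Each of 6 libraries came from a pool of 18 to 20 whole animals of strain AB, 3 pools in DMSO alone and 3 in PCB-11 at 4500 µg/L. PCB-11 is a dichlorobiphenyl, with few chlorine atoms for a polychlorinated biphenyl. All animals had their chorion removed at 24 hpf and were then left until 96 hpf, without renewal of the medium, in glass vials of 5 with DMSO at 0.05% v/v. The labels do not state whether the pools differ in clutch or exposure, so p-values cover the variation among these 6 pools alone, which may be technical in part.

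The pools held 15705712 to 20479751 gene counts, and the P450 genes took 0.198% to 0.294% of them. Each of 11 marker lists for tissues and cell types held 3 to 10 tested genes, as whole animals would give. On the first principal component over all genes PCB-11 replicate 2 lay farthest out, at 36.9, and the other 5 pools lay between -16.4 and 9.31. Of 7 lens markers 7 had log2 fold changes above 0, 6 of them at an unadjusted p under 0.05 in edgeR (median 0.49, 0 called), and their summed level was 3357 to 4001 CPM in DMSO and 4619 to 6307 CPM in PCB-11. Levels are TMM-scaled CPM, a count relative to the scaled total of its pool, given per pool or as mean ± SD over 3 pools. Each log2 fold change sets PCB-11 against DMSO and is given ± SE from edgeR's quasi-likelihood test. Calls were made where p, adjusted by Benjamini and Hochberg's method over the 12960 genes tested, was under 0.05.

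In PCB-11, 2 of the 60 tested P450 transcripts rose and 0 fell. Over all tested genes 0.0463% passed, 0.0386% as higher and 0.00772% as lower. The transcripts that rose were cyp1a, by 2.45-fold, and cyp2k6, by 2.77-fold. At an unadjusted p under 0.05, edgeR gave 3 higher and 4 lower members, 11.7% of the 60. This was near the background of 11.8% of all genes, 5.8% higher and 6.04% lower. The groups did not overlap in 8 members (13.3%), 3 higher and 5 lower, against 19.4% of all genes, 10% higher and 9.35% lower. Among the higher members, cyp8b3 would not have passed the expression filter on its DMSO pools alone. Log2 fold changes were below 0 in 34 members (56.7%) and in 49.8% of all genes. DESeq2 called the same 2 members (0.858% of all genes it tested) and limma-voom called 0, with 2 higher and 4 lower members at an unadjusted p under 0.05.

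**Figure D1:**
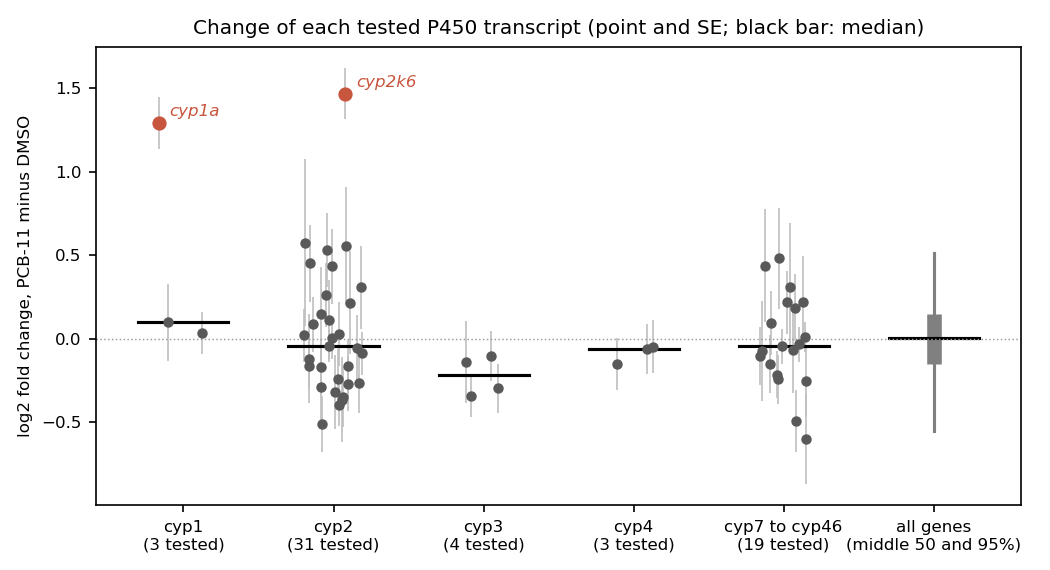
Log2 fold change (PCB-11 minus DMSO) of every tested P450 transcript by family, as points with SE, with black bars for medians; the last column gives the median, the middle 50% and the middle 95% of all 12960 tested genes. The called transcripts cyp1a (1.29) and cyp2k6 (1.47) lie above all other members, whose values run from -0.60 to 0.58.

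Among the cyp1 genes, cyp1a encodes the monooxygenase best known for its induction through the aryl hydrocarbon receptor. It had 42.2, 40.9 and 45.0 CPM in DMSO replicates 1, 2 and 3, and 102.5, 82.2 and 129.3 CPM in PCB-11 replicates 1, 2 and 3. All exposed pools lay above all control pools, and the controls lay close together while the exposed pools were spread. The log2 fold change was 1.29 ± 0.15 (edgeR adjusted p = 0.0378).

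The related gene cyp1b1, whose enzyme oxidises aromatic hydrocarbons and steroids, had 3.38, 3.65 and 2.55 CPM in DMSO and 3.20, 4.30 and 2.79 CPM in PCB-11. Its groups overlapped (log2 fold change 0.10 ± 0.23, edgeR adjusted p = 0.871). The gene cyp1d1, of a subfamily for which humans have only a pseudogene, had 36.7, 34.5 and 34.6 CPM in DMSO and 35.9, 30.3 and 42.1 CPM in PCB-11, again with overlap (0.04 ± 0.13, edgeR adjusted p = 0.922). On the log2 scale the ratio of cyp1a to cyp1d1, set to a mean of 0 in DMSO, was -0.07, -0.03 and 0.11 in the DMSO pools and 1.24, 1.16 and 1.34 in the exposed pools. The groups of this ratio lay 1.25 apart, and those of the ratio of cyp1a to cyp1b1 lay 1.17 apart. Because cyp1a was picked by its call, these differences are a description and carry no test.

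The remaining cyp1 genes, cyp1c1 and its neighbour cyp1c2, had 0 counts in each of the 6 pools, as did cyp2aa3 and cyp2k8. The genes cyp2aa3v1 and cyp2k22 had 0 to 3 counts. A count of 0 allows up to 3 counts, or 0.153 to 0.184 CPM in these pools, by counting error alone. The tables list 596 symbols at 0 throughout, and these include the proteasome gene psmd7 and the replication helicase gene mcm2, so a listed 0 does not separate an absent transcript from one that the counting missed.

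Among the cyp2 genes, 1 of 31 tested members rose, 15 had a log2 fold change above 0 and 16 below it, and the median was -0.05, where the median of all genes was 0.001. The gene that rose, cyp2k6, encodes a zebrafish enzyme known to act on aflatoxin. It had 5.16, 4.38 and 5.35 CPM in DMSO replicates 1, 2 and 3 and 12.4, 12.8 and 15.96 CPM in PCB-11 replicates 1, 2 and 3. The 2 groups were well apart, with PCB-11 replicate 3 highest and the other exposed pools nearly level. The log2 fold change was 1.47 ± 0.15 (edgeR adjusted p = 0.0378), resting on 84 to 303 counts per pool.

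In the RefSeq assembly GRCz12tu, used here only for names and for which genes are neighbours, cyp2k6 stands in an array with cyp2k8, cyp2k16, cyp2k17, cyp2k18 and cyp2k19. Its tested neighbours did not pass the test. Their log2 fold changes were -0.27 ± 0.16 for cyp2k16, 0.31 ± 0.25 for cyp2k17, 0.15 ± 0.28 for cyp2k18 and -0.37 ± 0.26 for cyp2k19. The log2 level of cyp2k6 minus the median of these 4 genes, on the scale of the DMSO means, was 0.04, -0.28 and 0.20 in DMSO and 1.39, 2.02 and 1.33 in PCB-11. The groups lay 1.60 apart, again a description with no test, since cyp2k6 was picked by its call and its uncalled neighbours were the reference.

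**Figure D2:**
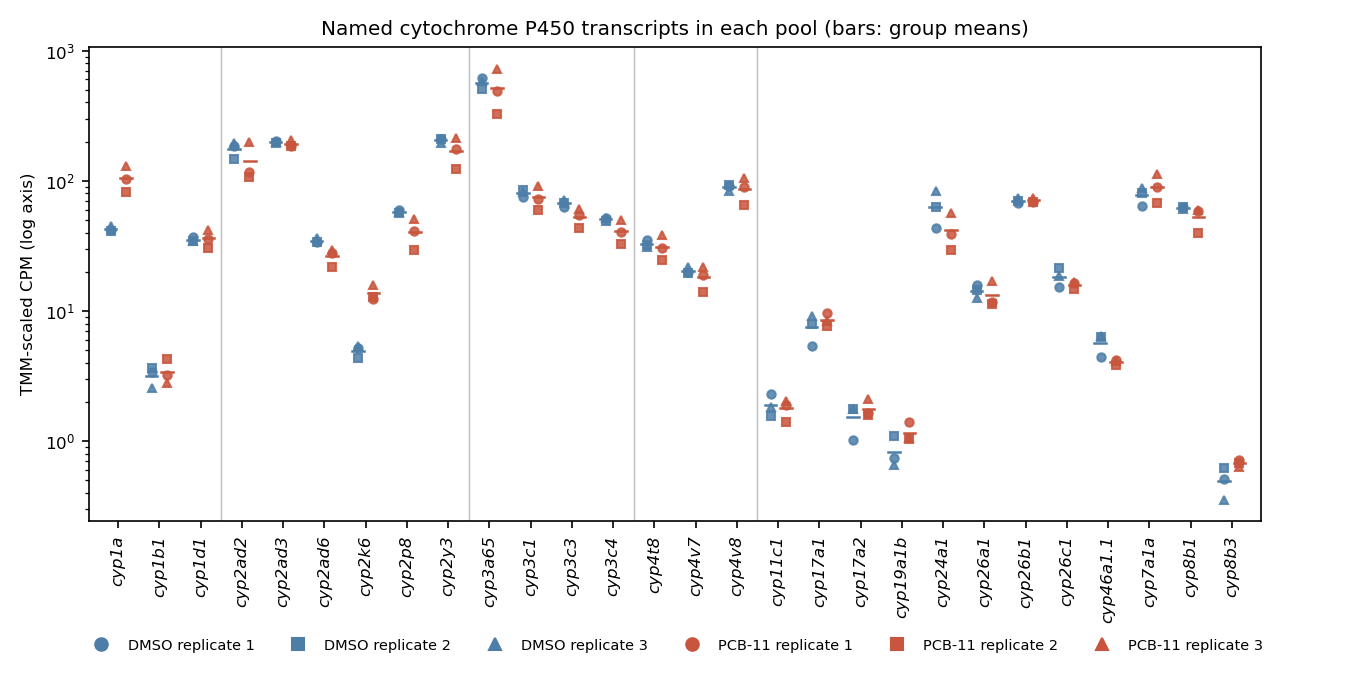
TMM-scaled CPM of the named, tested P450 transcripts in each of the 6 pools on a log axis, with short bars for group means and grey lines between the cyp1, cyp2, cyp3, cyp4 and cyp7 to cyp46 families. In cyp1a and cyp2k6 all PCB-11 pools lie far above the DMSO pools, and in most other genes the PCB-11 pools are spread around the DMSO values, with replicate 2 low.

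Arrays of neighbouring genes held 42 of the 69 members, counted where at most 2 other protein-coding genes lay between them. Only members that RefSeq classes as protein-coding were placed, which left out cyp2x12, a gene that overlaps cyp2x10.2. The count takes in both cyp2aa3 and its synonym cyp2aa3v1. The array of cyp2n13, cyp2v1, the cyp2ad and the cyp2p genes holds 10 members, whose RefSeq synonyms place them mostly in the CYP2J group, known in mammals for oxidising arachidonic acid. Of these 10, 8 had log2 fold changes below 0, beside 49.8% of all genes, with a median of -0.13 and a range of -0.51 to 0.02. Of the 10, 0 passed the test. The array of cyp2aa genes, with 8 tested members of 10, had 5 values above 0 and 3 below (median 0.10, range -0.24 to 0.53). Both medians varied by pool. Relative to the DMSO mean, the first array had -0.11, -0.55 and 0.09 in PCB-11 replicates 1, 2 and 3. The cyp2aa array had 0.07, -0.35 and 0.46 in the same pools. No test was made of the difference between the arrays.

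In the first of these arrays cyp2p8 had 59.6, 56.8 and 57.5 CPM in DMSO and 41.5, 29.6 and 50.6 CPM in PCB-11. The groups did not overlap, but the gene did not pass the test (log2 fold change -0.51 ± 0.17, edgeR adjusted p = 0.35). Its neighbour cyp2ad6 was alike in this, with 33.8, 33.9 and 36.6 CPM in DMSO and 27.8, 21.7 and 29.6 CPM in PCB-11 (-0.40 ± 0.13, edgeR adjusted p = 0.339). For cyp2ad2, with 184.4, 148.2 and 194.2 CPM in DMSO and 117.9, 106.9 and 197.4 CPM in PCB-11, the groups overlapped through PCB-11 replicate 3 alone (-0.32 ± 0.22).

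Without PCB-11 replicate 3, cyp2p8 and cyp2ad2 passed as lower in edgeR (log2 fold changes -0.70 and -0.64, adjusted p = 0.0423 and 0.044). In that setting 184 of 13012 tested genes passed, against 6 of 12960 with all pools. Over all 15 alternatives neither cyp2p8 nor cyp2ad2 passed in any other. The gene cyp2ad3 stayed within a narrow band, 195.5 to 201.9 CPM in DMSO and 183.9 to 205.4 CPM in PCB-11. The gene cyp2y3 had 196.7 to 209.2 CPM in DMSO and 174.2, 123.4 and 212.7 CPM in PCB-11 replicates 1, 2 and 3 (-0.27 ± 0.18). Its band widened mostly downward in the exposed pools, with replicate 3 just above the controls.

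On the higher side, cyp2aa9 had the smallest p among the uncalled cyp2 members above 0, and is named after its values were seen. It had 8.54, 6.61 and 7.29 CPM in DMSO and 12.3, 7.19 and 12.8 CPM in PCB-11, so that PCB-11 replicate 2 lay among the controls (log2 fold change 0.53 ± 0.22, edgeR adjusted p = 0.411). Without that pool the log2 fold change was 0.75 ± 0.14 (edgeR adjusted p = 0.166). Near-identical copies within such arrays can lose or exchange reads, so values of single array members are uncertain. In the reference, cyp2v1 also overlaps cyp2ad2, cyp2ad3 and cyp2p6, cyp2x12 overlaps cyp2x10.2, cyp8b1 overlaps cyp8b2, and cyp2aa3v1 is a synonym of cyp2aa3.

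The other tested cyp2 members did not pass. Within the cyp2aa array, cyp2aa8 had 56.5, 39.1 and 33.1 CPM in DMSO and 56.1, 43.5 and 75.9 CPM in PCB-11 (0.45 ± 0.23), and its neighbour cyp2aa4 had 21.7, 16.4 and 15.0 CPM and 22.2, 17.2 and 32.0 CPM (0.43 ± 0.23). Both were highest in PCB-11 replicate 3, and in both DMSO replicate 1 lay above PCB-11 replicate 2. The lowest values of this array were those of cyp2aa1 (-0.24 ± 0.18), cyp2aa7 (-0.17 ± 0.16) and cyp2aa12 (-0.16 ± 0.13), and cyp2aa2 and cyp2aa6 stood at 0.11 ± 0.24 and 0.08 ± 0.17.

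The cyp2x array held values on both sides of 0, with 0.56 ± 0.35 for cyp2x6 at 7 to 15 counts per pool, 0.26 ± 0.19 for cyp2x7, -0.12 ± 0.26 for cyp2x8 and -0.35 ± 0.18 for cyp2x9. Of these, cyp2x6 would not have passed the expression filter on its DMSO pools alone. Outside this array, cyp2x10.2 had 0.22 ± 0.31 and cyp2x12 had 0.58 ± 0.50. In the array with the cyp2ad genes, cyp2n13 had 137.5, 129.7 and 130.2 CPM in DMSO and 102.3, 74.9 and 148.3 CPM in PCB-11, with exposed pools on both sides of the controls (-0.29 ± 0.21). There cyp2p6, cyp2p7, cyp2p9, cyp2p10 and cyp2v1 lay between -0.17 and 0.02. The single gene cyp2u1, known in mammals as a fatty acid hydroxylase of brain and thymus, had 0.03 ± 0.19.

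All 4 cyp3 genes had log2 fold changes below 0, with a median of -0.22, and 0 of them passed the test. The gene cyp3a65 encodes a zebrafish CYP3A enzyme of liver and intestine and drew the most counts of the whole family, 17.1% to 23.0% of all P450 counts in a pool. It had 612.2, 507.5 and 580.1 CPM in DMSO and 487.6, 327.4 and 727.6 CPM in PCB-11, so that exposed pools lay both below and above all controls (-0.14 ± 0.25). The array of cyp3c1, cyp3c3 and cyp3c4 had values of -0.10 ± 0.15, -0.34 ± 0.13 and -0.30 ± 0.14, and among them cyp3c3 did not overlap between groups, with 62.5, 68.1 and 71.7 CPM in DMSO and 54.6, 43.7 and 61.2 CPM in PCB-11 (edgeR adjusted p = 0.392).

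The cyp3 median rested on single pools: it was -0.06 without PCB-11 replicate 2 and -0.46 without PCB-11 replicate 3. The group means of the 10 enterocyte markers were also lower in PCB-11. The groups did not overlap in 6 of the 10, all lower, beside 9.35% of all genes. All 10 had log2 fold changes below 0 (median -0.48, 6 lower at an unadjusted p under 0.05 in edgeR and 0 called), none was at 0, and their summed level was 2399 to 2546 CPM in DMSO and 1410 to 2246 CPM in PCB-11. Their part in the cyp3 and cyp2 values was not tested, and in whole animals fewer cells of a type and less RNA per cell cannot be told apart.

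The 3 tested cyp4 genes, of a family of fatty acid hydroxylases, all had values just below 0 and did not pass. Log2 fold changes were -0.06 ± 0.15 for cyp4t8, and -0.15 ± 0.16 and -0.05 ± 0.16 for cyp4v7 and cyp4v8, which RefSeq names cyp4v2b and cyp4v2a, after the CYP4V2 gene mutated in a human retinal dystrophy. The gene cyp4v8 had 91.1, 93.0 and 84.2 CPM in DMSO and 89.0, 65.0 and 105.3 CPM in PCB-11, with exposed pools on both sides of the controls. The fourth gene, cyp4f3, did not pass the filter, with 8 to 23 counts per pool.

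The 19 tested genes from cyp7 to cyp46 had 8 values above 0 and 11 below, with a median of -0.04, and 0 passed the test. Among the genes of steroid hormone synthesis, cyp17a1, the hydroxylase and lyase on the way to androgens and cortisol, had 5.39, 7.97 and 9.22 CPM in DMSO and 9.71, 7.68 and 8.32 CPM in PCB-11 (0.19 ± 0.20). Its paralogue cyp17a2 (0.22 ± 0.28), the cortisol-forming hydroxylase gene cyp11c1 (-0.07 ± 0.25) and cyp19a1b, the aromatase of radial glia (0.48 ± 0.30), also overlapped between the groups. These values rest on few reads, with 13 to 40 counts per pool in the last 3 genes. Of 6 radial glia markers 5 had log2 fold changes above 0, 3 of them at an unadjusted p under 0.05 in edgeR (median 0.28, 0 called). The remaining marker, slc1a3b, was lower at the same threshold (-0.33 ± 0.14). No radial glia marker was at 0, and the summed level of the 6 was 1177 to 1212 CPM in DMSO and 1335 to 1660 CPM in PCB-11. The part of these markers in the cyp19a1b value was not tested. The ovarian aromatase gene cyp19a1a had 3 to 7 counts and cyp11a1, which starts steroid synthesis from cholesterol, 4 to 9. The listed steroid genes cyp11a2 and cyp21a2 matched no gene symbol of the counts.

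For vitamin D, cyp24a1 encodes the enzyme that inactivates the hormone and is itself induced by the vitamin D receptor. It had 43.5, 62.7 and 83.6 CPM in DMSO and 39.0, 29.3 and 56.5 CPM in PCB-11. The controls alone spanned a wide range and the groups overlapped, so the largest negative value of the family, -0.60 ± 0.27, did not pass (edgeR adjusted p = 0.423). It ranged from -0.35 without DMSO replicate 3 to -0.88 without PCB-11 replicate 3. The other listed vitamin D genes, cyp2r1 and cyp27b1, matched no gene symbol of the counts.

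Among the genes of retinoic acid breakdown, the level of cyp26b1 was 67.2 to 73.9 CPM in DMSO and 68.9 to 74.0 CPM in PCB-11 (log2 fold change 0.01 ± 0.09). Values were -0.10 ± 0.17 for cyp26a1 and -0.22 ± 0.14 for cyp26c1, both with overlapping groups. The gene cyp27c1, whose enzyme makes vitamin A2 in the zebrafish retinal pigment epithelium, had 16.7 to 19.3 CPM in DMSO and 17.3 to 17.8 CPM in PCB-11, and cyp20a1, with no settled substrate, 28.5 to 30.0 and 26.1 to 31.8 CPM.

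In the bile acid and oxysterol group, cyp7a1a corresponds to cyp7a1, the rate-limiting enzyme of bile acid synthesis. It had 64.4, 80.7 and 87.5 CPM in DMSO and 89.5, 67.1 and 113.7 CPM in PCB-11, with overlap (0.22 ± 0.19, edgeR adjusted p = 0.639). The gene cyp8b1, known in mammals for directing synthesis toward cholic acid, had 61.1 to 62.9 CPM in DMSO and 58.2, 39.9 and 59.5 CPM in PCB-11. The exposed pools lay below the closely spaced controls, replicate 2 by far the most, and the gene did not pass (-0.24 ± 0.15, edgeR adjusted p = 0.515). Of the listed genes, cyp7b1 and most cyp27a genes matched no gene symbol of the counts. The gene cyp27a3, counted as si:dkey-91i10.3 (0.24 ± 0.11), was not a member by the symbol rule.

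Of the 4 neighbouring cyp46a1 copies, known in mammals for cholesterol hydroxylation in neurons, cyp46a1.1 had 4.47, 6.30 and 6.42 CPM in DMSO and 4.23, 3.87 and 4.11 CPM in PCB-11. The exposed pools lay close together below the controls, with DMSO replicate 1 near them (-0.49 ± 0.18, edgeR adjusted p = 0.389). The copies cyp46a1.2, cyp46a1.3 and cyp46a1.4 had 0.09 ± 0.19, -0.25 ± 0.21 and -0.15 ± 0.17. The gene cyp8b3 did not overlap in CPM either (0.44 ± 0.34), at 7 to 14 counts per pool. Its unscaled counts did overlap, with 9, 12 and 7 in DMSO and 14, 11 and 12 in PCB-11. That cyp8b3 was tested at all rested on its PCB-11 pools, so its separation carries no weight as a rise. The gene cyp8b2 had 0.31 ± 0.38 at 7 to 18 counts, and cyp39a1, an oxysterol hydroxylase gene, stood at -0.07 ± 0.30 with 14 to 20 counts.

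Most members shared an order among the exposed pools. In PCB-11, replicate 2 was the lowest in 51 of 60 members (85%) and replicate 3 the highest in 49 (81.7%), against 36.8% and 37.2% of all tested genes. The difference between these pools had a median of 0.60 on the log2 scale over the members and -0.01 over all genes. PCB-11 replicate 2 was the lowest of all 6 pools in 36 members (60%, against 28.7% of all genes). That pool also had the fewest gene counts, 15705712, and the largest part of reads outside genes, 39.1%. PCB-11 replicate 3 had the most gene counts, 20479751, with 31.8% of reads outside genes. The part of depth and of reads outside genes in this order was not tested.

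**Figure D3:**
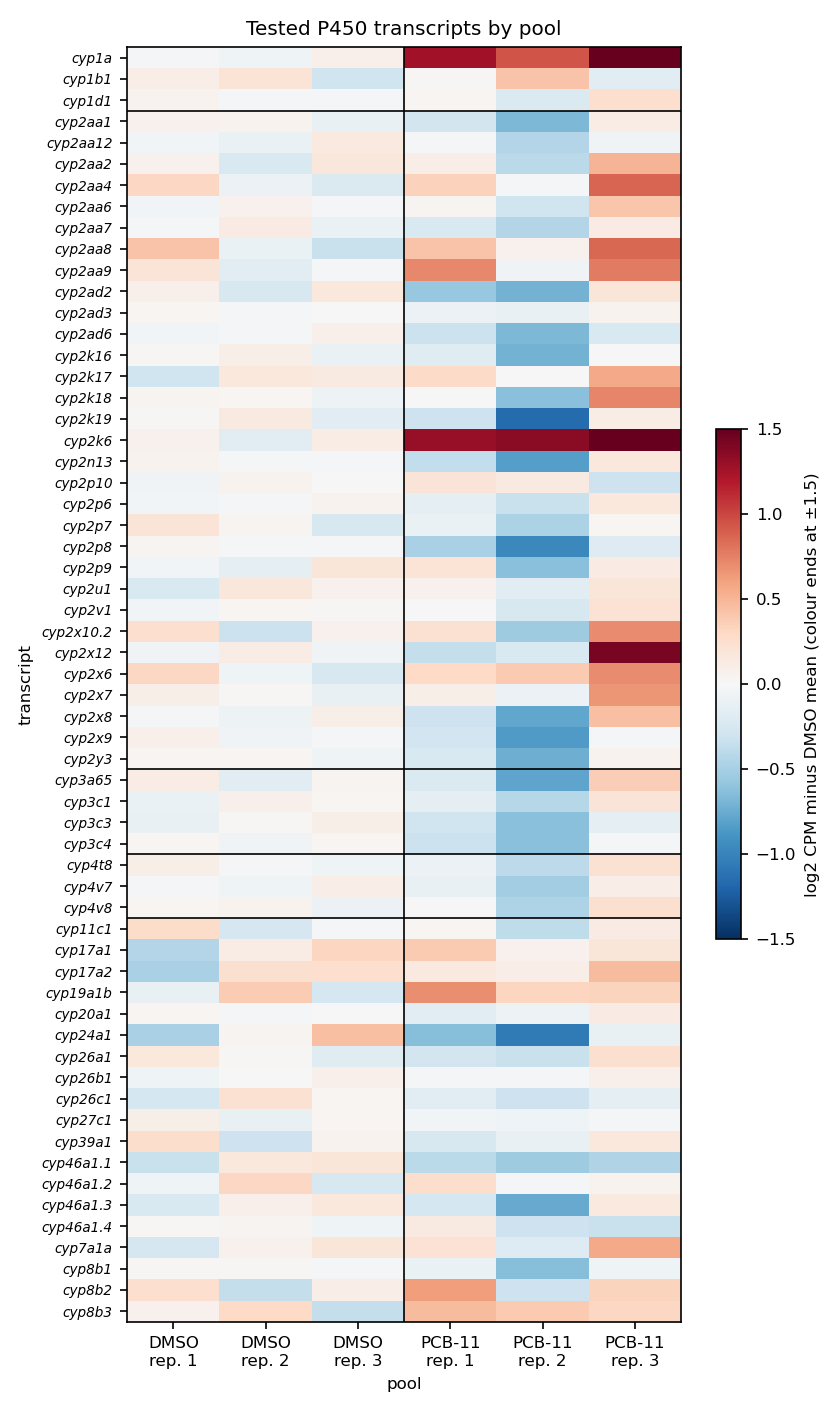
Log2 CPM minus the mean of the DMSO pools for each of the 60 tested P450 transcripts (rows, by family) in each pool (columns), with colours that end at ±1.5. The column of PCB-11 replicate 2 is blue in most rows and that of replicate 3 red, while cyp1a and cyp2k6 are red in all 3 PCB-11 columns.

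PCB-11 replicate 2 was the lowest exposed pool in 2 of 3 cyp1 genes, 27 of 31 cyp2 genes, all 4 cyp3 genes, all 3 tested cyp4 genes and 15 of 19 genes from cyp7 to cyp46. The 9 exceptions were cyp1b1, cyp2k6, cyp2p10, cyp2x6, cyp2x12, cyp8b3, cyp20a1, cyp39a1 and cyp46a1.4. The median gap between PCB-11 replicates 3 and 2 was 0.75 in the cyp2 genes, 0.62 in the cyp3 genes and 0.62 in the cyp4 genes, and 0.19 from cyp7 to cyp46. The widest gap was that of cyp2x12, at 1.65, with 13 to 52 counts per pool, followed by cyp2k18 at 1.35 and cyp2k19 at 1.26.

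Family medians per pool showed the same order in every family but cyp1. Relative to the DMSO mean, the cyp2 median was -0.02, -0.44 and 0.18 in PCB-11 replicates 1, 2 and 3, and the cyp3 median -0.26, -0.63 and 0.09. The cyp4 median was -0.09, -0.46 and 0.23, and that from cyp7 to cyp46 was -0.02, -0.20 and 0.13. In the DMSO pools the medians of these families stayed between -0.07 and 0.04. The cyp1 median, over 3 genes, was 0.03, 0.43 and 0.26 in PCB-11 replicates 1, 2 and 3, so that replicate 2 was the highest there. In replicate 2 this median was the value of cyp1b1, a gene of few reads. The values of cyp1a (0.94) and cyp1d1 (-0.22) in replicate 2 were their lowest among the exposed pools.

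Of the 11 marker lists, 3 had the same order of medians among the exposed pools: hepatocyte, enterocyte and exocrine pancreas. For hepatocyte markers the median stood at 0.06 in replicate 1, -0.29 in replicate 2 and 0.38 in replicate 3. All 10 were tested, none was at 0, 7 had log2 fold changes above 0 and 3 below (median 0.06), and their summed level was 9864 to 11253 CPM in DMSO and 7948 to 13661 CPM in PCB-11. Enterocyte markers had medians of -0.39, -0.82 and -0.26, below 0 in all 3 exposed pools. The 8 exocrine pancreas markers, all tested and none at 0, had 0.05, -0.62 and 0.45, and a summed level of 5851 to 8373 CPM in DMSO and 4403 to 8948 CPM in PCB-11. Skeletal muscle, macrophage and steroid cell markers (8, 4 and 3 tested genes) also had their highest exposed median in replicate 3, at 0.28, 0.76 and 0.74. In these lists replicate 1 was the lowest exposed pool. Kidney tubule and endothelium markers had their highest exposed median in replicate 1, at 0.07 and 0.05. Lens, neuron and radial glia markers had their highest median in replicate 2, at 0.76, 0.53 and 0.46. The part of any of these tissues in the P450 values was not tested.

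**Figure D4:**
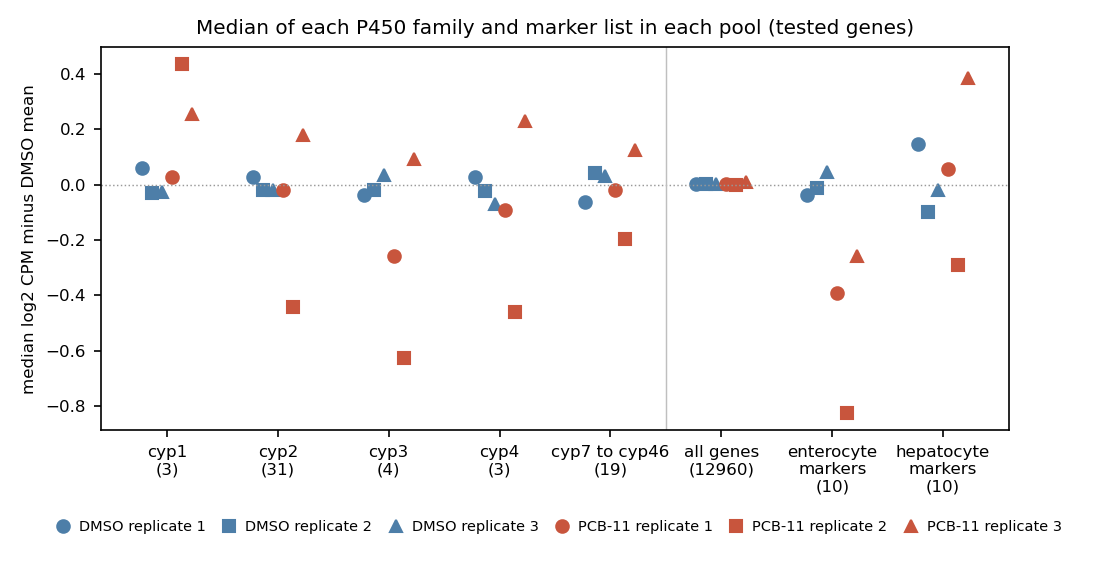
Median log2 CPM minus the DMSO mean over the tested genes of each P450 family, of all genes and of the enterocyte and hepatocyte markers, with a point for each pool and the number of genes in parentheses. PCB-11 replicate 2 is lowest in the cyp2, cyp3, cyp4 and cyp7 to cyp46 families and in both marker lists. In cyp1, with 3 genes, it is highest, where the median is the value of cyp1b1.

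The rise of cyp1a and cyp2k6 stood out against this shared movement. Measured against the median of the other 58 tested members in the same pool, cyp1a was 1.33, 1.31 and 1.44 higher on the log2 scale in PCB-11 replicates 1, 2 and 3, and -0.04, -0.08 and 0.08 in the DMSO replicates. The same measure gave 1.37, 1.72 and 1.51 for cyp2k6 in PCB-11 and 0.04, -0.19 and 0.12 in DMSO. Without the family as a reference the log2 values of cyp1a were 1.26, 0.94 and 1.60, a wider spread. Those of cyp2k6 were 1.31, 1.36 and 1.67, a spread about as wide as against the family but in another pool order. For cyp1d1 the measure against the family was 0.09, 0.14 and 0.10 in PCB-11. For cyp1b1, at 50 to 70 counts per pool, it was 0.08, 0.79 and -0.33. The genes cyp1a and cyp2k6 were picked by their calls, so the values are a description and carry no test.

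Summed over the 69 members, P450 counts were 2741, 2613 and 2741 CPM in the DMSO replicates and 2464, 1914 and 3169 CPM in the PCB-11 replicates. The exposed pools lay on both sides of the controls. The sum of the cyp1 genes was 82.3, 79.1 and 82.2 CPM in DMSO and 141.7, 116.8 and 174.2 CPM in PCB-11, mostly from cyp1a and cyp1d1. The difference lay mostly in cyp1a, with 42.7 ± 2.13 CPM in DMSO and 104.7 ± 23.6 CPM in PCB-11. For cyp1d1 these levels were 35.3 ± 1.25 and 36.1 ± 5.93 CPM. As a share of all P450 counts the cyp1 sum was 3.00% to 3.03% in DMSO and 5.50% to 6.10% in PCB-11.

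**Figure D5:**
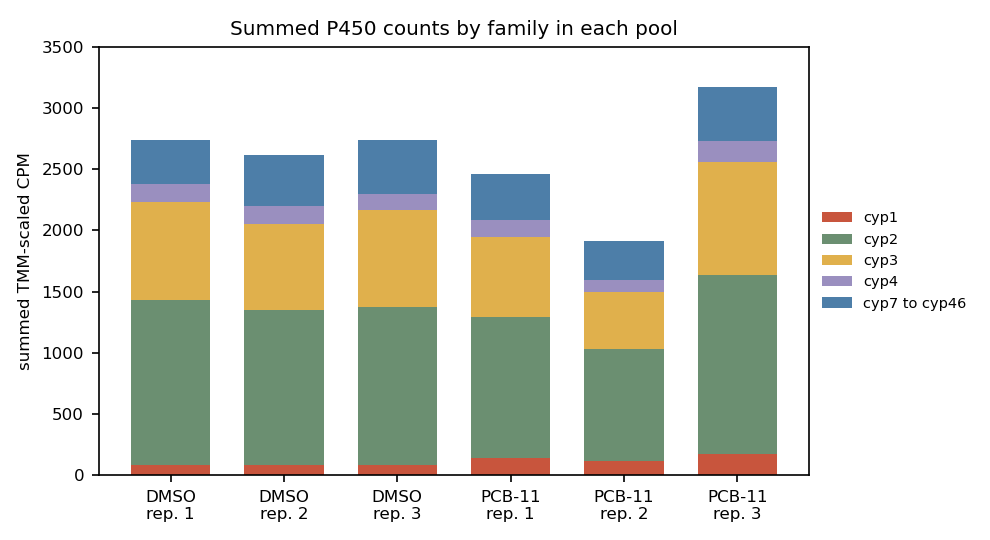
Summed TMM-scaled CPM of the P450 members in each pool, stacked by family from 0. The total lies between 2613 and 2741 in the DMSO pools and at 2464, 1914 and 3169 in the PCB-11 pools, with a larger cyp1 part in all 3 PCB-11 pools.

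The other families kept steadier shares. The cyp2 genes held 47.3% to 49.2% of P450 counts in DMSO and 46.01% to 47.7% in PCB-11, and the cyp3 genes 27.1% to 29.2% and 24.2% to 29.4%. The cyp4 genes held 5.02% to 5.58% and 5.24% to 5.64%, and the genes from cyp7 to cyp46 13.2% to 16.05% and 13.9% to 16.5%. The 5 genes with most counts in DMSO, cyp3a65, cyp2y3, cyp2ad3, cyp2ad2 and cyp2n13, made up 42.7% to 49.1% of P450 counts in a pool. Counts were not divided by transcript length, because no lengths of the counted gene models were used here, so such shares are shares of reads and do not rank the transcripts.

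Spread differed between the groups as well. The SD of log2 CPM was larger among the PCB-11 pools than among the DMSO pools in 48 of 60 members (80%, against 73.7% of all genes). Its median over the members was 0.12 in DMSO and 0.31 in PCB-11, where all genes gave 0.11 and 0.19. In the other 12 members the DMSO pools were the more spread.

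The genes around the P450 enzymes gave 0 calls in 78 tested genes of 6 lists, with 9 (11.5%) at an unadjusted p under 0.05 in edgeR, beside 11.8% of all genes. The electron donor P450 oxidoreductase, pora in the tables, was steady at 83.0 ± 3.32 CPM in DMSO and 85.9 ± 1.58 CPM in PCB-11 (log2 fold change 0.05 ± 0.09). Cytochrome b5 genes, whose products can pass on the second electron, had -0.28 ± 0.10 for cyb5b and -0.21 ± 0.14 for cyb5a. The receptor genes ahr2 (-0.05 ± 0.11), the aryl hydrocarbon receptor of zebrafish that mediates cyp1a induction, and nr1i2 (-0.14 ± 0.13), the pregnane X receptor, did not pass.

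In the aryl hydrocarbon receptor list of 11 tested genes, the smallest p belonged to the forkhead gene foxq1a (-0.70 ± 0.25, edgeR adjusted p = 0.374) and to tiparp, a receptor-induced repressor (0.19 ± 0.11, edgeR adjusted p = 0.52). Among 18 tested nuclear receptors 15 had values below 0, beside 49.8% of all genes, with a median of -0.13. Relative to the DMSO mean, the median of this list was -0.04, -0.27 and -0.02 in PCB-11 replicates 1, 2 and 3. It was thus lowest in replicate 2, and near the DMSO pools (-0.02 to 0.03) in the other exposed pools. The smallest p belonged to rxraa (-0.36 ± 0.12) and pparg (-0.49 ± 0.18), a retinoid X receptor and a fat cell receptor. In the retinoic acid list the smallest p belonged to the cellular binding protein gene crabp1b (0.45 ± 0.13) and the retinol esterifying enzyme gene lrata (0.52 ± 0.17). Both were higher in all 3 exposed pools than in any control. Of the 19 tested genes of this list, 9 had values above 0 and 10 below. The groups did not overlap in 3 higher and 2 lower genes, where all genes gave 10% higher and 9.35% lower. The steroid list led with srd5a2a, a steroid reductase gene (-0.31 ± 0.12), and nr5a1a, a factor of steroid-making cells (-0.49 ± 0.26), and the bile acid list with amacr, a racemase gene (-0.44 ± 0.18), and fabp6, the ileal bile acid-binding protein gene (0.41 ± 0.20). Of the genes named here, cyb5b, foxq1a, rxraa, pparg, srd5a2a and amacr were lower in all 3 exposed pools than in any control. Being picked for a small p favours such a separation, so this is a description. The groups did not overlap in 1 of 11 aryl hydrocarbon receptor genes and 3 of 18 nuclear receptors, all lower. The same held for 1 of 13 electron donor and partner genes and 1 of 5 bile acid genes. Of 13 tested steroid genes 1 was lower and 1 higher. Adjusted p in edgeR was at least 0.321 for each gene named here.

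The calls of cyp1a and cyp2k6 depended on the pools kept. Both were lost without DMSO replicate 1, 2 or 3 or without PCB-11 replicate 1 (edgeR adjusted p from 0.0948 to 0.285), and both held without PCB-11 replicate 2 (0.00641 and 0.0228) and without PCB-11 replicate 3 (0.0103 each). Their log2 fold changes moved little, from 1.12 to 1.44 for cyp1a and from 1.35 to 1.54 for cyp2k6 over the 15 alternatives. Upper quartile scaling ended the call of cyp1a (edgeR adjusted p = 0.0565), and limma-voom ended both (adjusted p = 0.0529 each). DESeq2 and the replicate block kept both. Over all tested genes, edgeR called 0, 1 and 0 without DMSO replicates 1, 2 and 3, and 0 without PCB-11 replicate 1.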

How the data were processed

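Whole-number read counts per gene symbol were deposited by the authors, a table per pool. The submitters' processing notes name the build danRer7 and Cufflinks without role or version; aligner, counter, strand setting and annotation remain not given in the sources used here. Reads outside genes (31.4% to 39.1% of a pool, 95% Wilson interval of the highest 39.10% to 39.14%, counting error only) and ambiguous reads (0.379% to 0.429%) stayed out of library sizes and tests.

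Groups and replicate numbers came from the sample titles. Counts were fitted on all 6 pools in edgeR 4.0.16 (R 4.3.3) with TMM scaling, the default filter, robust dispersion, no term but group, and quasi-likelihood F tests, which are two-sided; SE came from the F statistic. The fit was checked on simulated counts. Pool differences used log2 CPM with a prior count of 2. Alternatives were 3 other scalings, no filter, a filter of 1 CPM in 3 pools, DESeq2 1.42.0, limma-voom (limma 3.58.1), no robust dispersion, the replicate block and leaving out each pool.

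The members and lists were chosen with earlier results of these data known. Named genes are the called members, all tested cyp1 genes, the 3 with most counts and the 3 of smallest p in cyp2, cyp3 and cyp4, the 3 with most counts from cyp7 to cyp46, the steroid, vitamin D and retinoic acid genes, 3 bile acid genes of smallest p, members with p under 0.01, members at 0, and per pathway list the 2 of smallest p with ahr2, nr1i2 and pora; others were named to account for members, after their values were seen. All 69 members matched a RefSeq symbol in GRCz12tu, 8 by synonym. No coordinates are given. A comparison of levels between genes per length was planned but not made, because lengths of the counted models were not used here.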

Additional observations from a re-analysis of the deposited data

How the results depend on the processing

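Of 60 tested members, 2 (cyp2p10 and cyp2v1, both near 0) changed sign under another scaling, filter, test or block, and 24 did when a pool was left out. Members called higher numbered 2, but 1 with upper quartile scaling (cyp1a log2 fold change 1.29, adjusted p = 0.0565), 0 in limma-voom (1.27 for cyp1a and 1.46 for cyp2k6, adjusted p = 0.0529 each) and 0 to 2 without a pool. Members called lower numbered 0, and 0 to 2 without a pool. Over all genes there were 6 calls, 5 higher and 1 lower. There were 3 higher with upper quartile scaling, 8 higher without a filter, 110 in DESeq2 (59 higher and 51 lower) and 0 in limma-voom (1540 genes at an unadjusted p under 0.05). Leaving out a pool gave 0 to 184 calls, 0 to 55 higher and 0 to 129 lower; the 184 came without PCB-11 replicate 3. The cause of these shifts was not tested. The median log2 fold change of the members was -0.05, and -0.19 to 0.03 without a pool.

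With the replicate block edgeR called 26 genes (20 higher and 6 lower), cyp1a and cyp2k6 the members among them, at log2 fold changes of 1.27 and 1.47. At an unadjusted p under 0.05 it gave 3 higher and 8 lower members, against 3 and 4 without the block. Over all 12960 tested genes these fits gave 1789 and 1535. Deviations from group means correlated at 0.26, -0.15 and 0.37 for replicates 1, 2 and 3. PCB-11 replicates 1 and 3 correlated best with the DMSO pool of their own number, and replicate 2 with DMSO replicate 1 (0.23). With 3 pools per group this cannot decide whether the pools are pairs. The numbers share no stated source, so the pools were not taken as pairs.

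Without a pool, log2 fold changes ran from 1.12 to 1.44 for cyp1a, 1.35 to 1.54 for cyp2k6, -0.70 to -0.33 for cyp2p8 and -0.64 to -0.16 for cyp2ad2. The sign turned for cyp1b1 (-0.0884 to 0.23), cyp1d1 (-0.0877 to 0.15), cyp3a65 (-0.47 to 0.101), cyp3c1 (-0.28 to 0.0341), cyp4t8 (-0.23 to 0.0757), cyp4v8 (-0.21 to 0.12), cyp11c1 (-0.19 to 0.0837), cyp17a1 (-0.00287 to 0.36), cyp26a1 (-0.31 to 0.000103), cyp26b1 (-0.0223 to 0.0469) and ahr2 (-0.11 to 0.0514). Values of cyp8b3, cyp39a1 and cyp19a1b rest on 7 to 27 counts per pool, and whether more reads would change them was not tested.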
